A study of Mus musculus with 6 samples.

Results

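The TBC family comprised 31 protein-coding genes whose annotated symbol is Tbck or Tbc1d followed by a number, out of 22180 genes with a probe set of their own. Each gene was read at 1 probe set, chosen by the highest mean over the 6 arrays among probe sets annotated to that gene alone. The level of a member is therefore a description. The rule does not use the difference between the groups, but the family was proposed with results of these data in view. The spelling also matched Tbc1d22bos, an annotated long noncoding RNA, which was kept apart, as were the tubulin cofactor genes Tbca, Tbcb, Tbcc and Tbcd, whose similar symbols refer to a different function. RNA came from RAW 264.7 cells, a mouse macrophage-like line, in 2 groups of 3 samples. The Mist-targeted group had received a locked nucleic acid GapmeR against Mist, and the Control group a non-targeting GapmeR, in both cases at 50 nM for 48 h with the same lipid reagent. GapmeRs are antisense strands whose central DNA lets RNase H cleave the RNA they pair with, and Mist is a long noncoding RNA of macrophages. No probe set was named Mist (0 of 41345), so its own level was not analysed here.

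A TBC domain switches off Rab GTPases, the small G proteins that give each membrane compartment its identity and recruit its motors and tethers. It does so with a pair of catalytic residues, an arginine and a glutamine, that speed GTP hydrolysis. Each family member acts at particular membranes, and some have lost the catalytic residues and work as tethers or scaffolds. In macrophages Rab proteins time the maturation of phagosomes, the recycling of receptors and the release of cytokines.

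Values were log2 expression on 6 arrays with medians of 4.47 to 4.50. Pairs of arrays of different groups correlated at 0.986 to 0.989, and pairs of the same group at 0.988 to 0.991. All 8 macrophage markers, among them Csf1r, Cd68 and Spi1, lay above the median of every array, while 0 of 4 T cell and 0 of 3 B cell markers and 1 of 4 fibroblast markers (Col1a1) did. Over all probe sets tested, 92 of the 22180 genes, or 0.415%, had an adjusted p under 0.05 (limma with Benjamini-Hochberg adjustment, called hereafter). The labels do not call the replicates independent cultures, so each p rests on a spread that could be purely technical. The number of arrays limits the precision, and the standard error of a TBC family difference was 0.082 to 0.17 on the log2 scale. An exact permutation test of 3 against 3 arrays cannot go below p = 0.1.

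Of the 31 TBC family genes, 0 were called over all probe sets tested, beside 0.415% of all genes. That share also stands beside each count of 0 called over all probe sets in the other lists below. The adjusted p values of the family lay between 0.13 and 0.99. Most members nevertheless lay on the same side: 25 had a negative difference and 6 a positive one (Mist-targeted minus Control). The median difference of the family was -0.13 on the log2 scale, beside 0.0069 over all genes, of which 47.8% were negative. At an unadjusted p under 0.05, 6 members were lower in the Mist-targeted arrays, beside 5.79% of all genes, and 0 were higher, beside 5.24% (limma). In 9 members all 3 Mist-targeted arrays lay below all 3 Control arrays, beside 9.97% of all genes. In 2 members, Tbc1d10b and Tbc1d14, they lay above, beside 9.99% of all genes. Among the 13787 genes left after removal of the dimmest 40% of probe sets the share with Mist-targeted arrays lower throughout was 13.2%, and all 9 of those members were among the 27 that remained. At an unadjusted p under 0.05 (limma) 8.48% of those 13787 genes were lower, beside 6 of the 27 members.

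**Figure D1:**
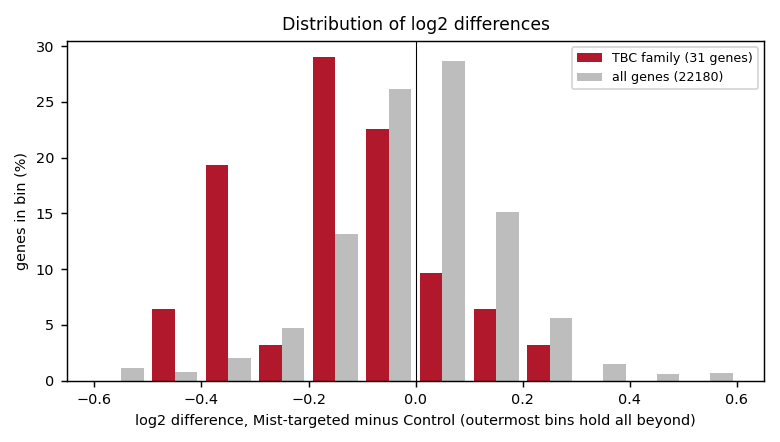
Share of genes (y axis, percent) in each bin of the log2 difference, Mist-targeted minus Control (x axis, bins of 0.1), for the 31 TBC family genes and for all 22180 genes; the outermost bins also hold all values beyond them. Of the TBC family, 19.4% lay between -0.4 and -0.3, against 1.98% of all genes, and 3.23% between -0.3 and -0.2, against 4.69%. In the bins above 0.3 lay 0 members, and 1.5%, 0.62% and 0.65% of all genes. All genes include dim ones: 10516 of the 22180 lay above the median of every array, and 27 of the 31 members.

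The fit was also made on the 25335 probe sets that the platform annotation lists, leaving out 16010 that it does not, an alternative known from earlier work on these data to give more calls. It called 4 TBC family genes, all lower in the Mist-targeted arrays, beside 1.8% of all genes called lower, and 0 higher, beside 1.1%. The 4 were Tbc1d4, Tbc1d2, Tbc1d23 and Tbc1d22a, the members with the largest differences. The size of a difference is the same in both fits. Its standard error and p were estimated anew from the listed probe sets, and the adjustment covered fewer tests. At an unadjusted p under 0.05 (limma) 9 members passed there, against 6 over all probe sets. Standard errors given below are from the fit over all probe sets.

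Tbc1d4 encodes AS160, the AKT substrate that holds back vesicle exocytosis through Rab10 and related Rabs until insulin or growth factor signalling inactivates it. Its log2 values were 6.06, 6.07 and 6.28 in the Mist-targeted arrays, against 6.55, 6.72 and 6.60 in the Control arrays. The groups did not overlap, and the highest Mist-targeted array stayed below the lowest Control array. The difference was -0.49 ± 0.098 (SE, n = 3 per group), or 1.40-fold lower, with limma adjusted p = 0.13 over all probe sets and 0.018 over listed ones. Over 15 alternatives the adjusted p ranged from 0.018 to 0.37 and was under 0.05 in 1. Its closest relative Tbc1d1, also an AKT substrate, differed by -0.03 ± 0.085 with overlapping groups, and a second probe set of Tbc1d1 gave 0.18 ± 0.11. That second probe set averaged 4.32 over the 6 arrays, below the array medians of 4.47 to 4.50, and the first averaged 7.32.

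Tbc1d2 encodes Armus, a Rab7 regulator that also binds active Rac1 and the autophagosome protein LC3. It measured 6.80, 6.98 and 7.08 in the Mist-targeted arrays, against 7.39, 7.53 and 7.29 in the Control arrays. All 3 Mist-targeted arrays were the lower ones. The difference of -0.45 ± 0.11 (SE) corresponds to 1.36-fold lower, with limma adjusted p = 0.19 over all probe sets and 0.039 over listed ones, and a range of 0.039 to 0.48 over 15 alternatives.

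Tbc1d23 encodes a catalytically inactive member that bridges endosome-derived vesicles to golgins at the trans-Golgi. It measured 9.66, 9.64 and 9.49 in the Mist-targeted arrays, against 9.93, 10.02 and 10.04 in the Control arrays. The groups were apart, with every Mist-targeted array the lower. The difference was -0.40 ± 0.088 (SE), with limma adjusted p = 0.16 over all probe sets, 0.036 over listed ones and a range of 0.036 to 0.41 over 15 alternatives.

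Tbc1d22a encodes a Golgi protein that binds the adaptor ACBD3. It measured 7.01, 7.09 and 7.05 in the Mist-targeted arrays, against 7.51, 7.43 and 7.37 in the Control arrays. All 3 Mist-targeted arrays lay below every Control array. The difference was -0.39 ± 0.082 (SE), with limma adjusted p = 0.14 over all probe sets, 0.034 over listed ones and a range of 0.034 to 0.38 over 15 alternatives. Leaving out any 1 array gave differences between -0.56 and -0.35 for these 4 genes. Their sign could not change, because the groups do not overlap.

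The sequences around the start sites of these 4 genes are shown because they are the members called among listed probe sets. Each covers 250 bases before and 50 after the most upstream RefSeq start in build GRCm38.p6, printed 5′ to 3′ along the gene. Tbc1d4 lies at chr14:101609142-101609441 on the minus strand, Tbc1d2 at chr4:46650150-46650449 on the minus strand, Tbc1d22a at chr15:86214209-86214508 on the plus strand and Tbc1d23 at chr16:57231417-57231716 on the minus strand. Capitals mark ACGTG or GCGTG on either strand, the core letters of the element that hypoxia-inducible factors bind.
Tbc1d4: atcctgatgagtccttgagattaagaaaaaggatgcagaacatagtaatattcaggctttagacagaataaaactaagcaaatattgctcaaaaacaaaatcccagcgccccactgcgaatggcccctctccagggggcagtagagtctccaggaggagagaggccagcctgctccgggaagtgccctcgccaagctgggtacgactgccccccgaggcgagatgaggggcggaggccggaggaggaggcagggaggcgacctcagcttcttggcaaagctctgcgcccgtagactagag
Tbc1d2: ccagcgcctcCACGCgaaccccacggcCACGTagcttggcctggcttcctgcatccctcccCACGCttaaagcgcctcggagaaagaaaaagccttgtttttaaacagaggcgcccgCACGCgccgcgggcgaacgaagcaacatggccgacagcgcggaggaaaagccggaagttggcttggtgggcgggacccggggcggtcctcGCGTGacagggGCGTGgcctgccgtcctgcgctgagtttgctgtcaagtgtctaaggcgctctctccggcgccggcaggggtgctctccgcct
Tbc1d22a: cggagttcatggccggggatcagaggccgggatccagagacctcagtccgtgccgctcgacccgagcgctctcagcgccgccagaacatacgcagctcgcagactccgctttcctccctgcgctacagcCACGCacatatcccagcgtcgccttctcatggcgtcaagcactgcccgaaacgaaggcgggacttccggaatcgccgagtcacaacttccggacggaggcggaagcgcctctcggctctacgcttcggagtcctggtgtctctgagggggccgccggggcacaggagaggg
Tbc1d23: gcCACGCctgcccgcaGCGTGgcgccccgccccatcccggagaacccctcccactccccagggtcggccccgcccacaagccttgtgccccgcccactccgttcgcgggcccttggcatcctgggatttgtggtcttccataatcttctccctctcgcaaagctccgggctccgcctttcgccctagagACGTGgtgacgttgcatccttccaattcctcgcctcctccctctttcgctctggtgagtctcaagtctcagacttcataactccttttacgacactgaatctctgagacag

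Tbc1d2 held 6 such cores, Tbc1d23 held 3, Tbc1d22a held 1 and Tbc1d4 held 0. Of the 31 members 24 had an entry in the promoter table, and 16 of the 24 windows held at least 1 core, beside 43.8% of 27025 promoters of the same length. The E-box CACGTG, which contains ACGTG on both strands and is the recognition sequence of MYC and of the lysosomal regulators TFEB and TFE3, was in 7 of the 24 windows, beside 7.24% of all promoters. None of the 4 windows printed above held it. The median G and C content was 63.5% in the 24 windows and 52.7% in all promoters, and its part in these counts was not tested.

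**Figure D2:**
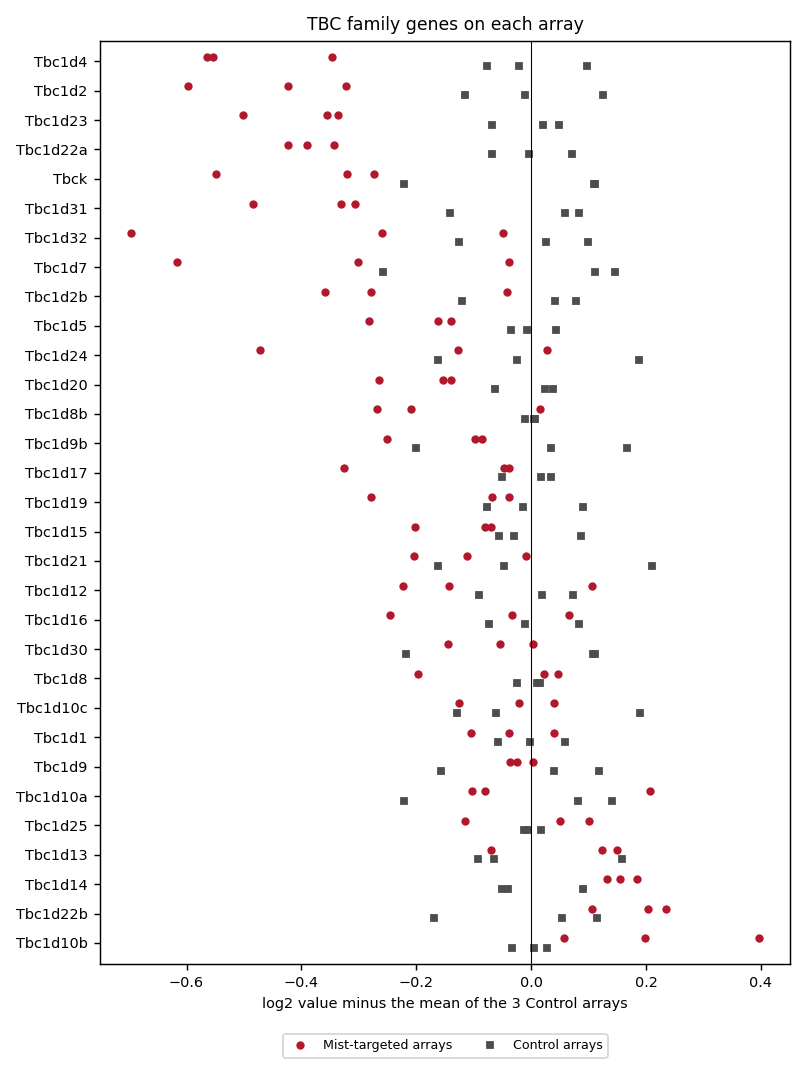
Log2 value of each TBC family gene on each array, minus the mean of the 3 Control arrays (x axis), with genes in order of their difference from the most negative down. Circles are Mist-targeted arrays and squares Control arrays, and in the 6 uppermost genes, Tbc1d4 to Tbc1d31, all circles lie left of all squares.

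The ER and Golgi members differed in sign. Tbc1d20, the Rab1 GTPase activator of the endoplasmic reticulum, differed by -0.19 ± 0.084 (SE), and its Mist-targeted arrays lay below all Control arrays. Tbc1d22b, the paralog of Tbc1d22a, had a positive difference of 0.18 ± 0.10 with overlapping groups, and 0.097 without Control replicate 1. Per array, the gap between Tbc1d22a and Tbc1d22b was lower in every Mist-targeted than in every Control array, a difference between the paralogs of -0.57 (exact two-sided permutation p = 0.1, the smallest possible, and adjusted p = 0.2 over 8 paralog pairs). The pair Tbc1d4 and Tbc1d1 was also separated, with a difference between them of -0.45 (exact permutation p = 0.1, adjusted p = 0.2). Tbc1d14 against Tbc1d12 (0.24) and Tbc1d9 against Tbc1d9b (0.13) were separated in the other direction at the same p. The remaining 4 pairs, including Tbc1d2 against Tbc1d2b at -0.22, overlapped. Among single genes 9.97% were separated with Mist-targeted arrays lower and 9.99% with them higher, and the share among all gene pairs was not tested. Tbc1d22bos, the long noncoding RNA named for the strand opposite to Tbc1d22b, averaged 4.19 ± 0.25 in the Mist-targeted and 4.03 ± 0.10 in the Control arrays (mean ± SD, n = 3 each), and differed by 0.16 ± 0.14 (SE).

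Tbc1d7 and Tbck belong to signalling and RNA transport complexes. Tbck, a subunit of the FERRY complex that carries mRNAs on early endosomes, measured 7.24, 7.47 and 7.52 in the Mist-targeted arrays, against 7.57, 7.90 and 7.90 in the Control arrays. Replicate 1 was the lowest of its group in both, and the groups were separated by a narrow margin. The difference was -0.38 ± 0.13 (SE; limma adjusted p = 0.36). Of the other FERRY genes 3 were examined here, with differences of both signs: Cryzl1 differed by -0.30 ± 0.076, Ppp1r21 by 0.24 ± 0.092 and Gatd1 by 0.05 ± 0.096, and 0 of the 3 were called.

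Tbc1d7, the third subunit of the TSC complex that restrains mTORC1 by acting on the GTPase Rheb, measured 5.32, 5.90 and 5.64 in the Mist-targeted arrays, against 5.68, 6.05 and 6.09 in the Control arrays. The groups overlapped and replicate 1 was again lowest in each. The difference was -0.32 ± 0.17 (SE; limma adjusted p = 0.63), and -0.17 without Mist-targeted replicate 1. Tsc1 differed by -0.09 ± 0.090, Tsc2 by -0.06 ± 0.10 and Rheb by 0.16 ± 0.086, and 0 of these 3 partners were called.

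Among members of the centrosome and cilium, Tbc1d31, a centriolar satellite protein, measured 7.40, 7.58 and 7.56 in the Mist-targeted arrays, against 7.95, 7.97 and 7.75 in the Control arrays. These groups did not overlap, and the difference was -0.37 ± 0.10 (SE; limma adjusted p = 0.23 over all probe sets and 0.066 over listed ones, with a range of 0.066 to 0.55 over 15 alternatives). Tbc1d32, a ciliary protein needed for Hedgehog signalling, measured 6.06, 6.71 and 6.50 in the Mist-targeted arrays, against 6.63, 6.79 and 6.86 in the Control arrays. Mist-targeted replicate 1 stood apart here, the groups overlapped, and the difference of -0.33 ± 0.17 (SE) was -0.15 without that array. Tbc1d30, a Rab8 regulator, measured 3.76, 3.70 and 3.61 in the Mist-targeted arrays, against 3.86, 3.54 and 3.87 in the Control arrays, overlapping groups with a difference of -0.07 ± 0.11.

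The 8 members of late endosomes, lysosomes and autophagy had 6 negative and 2 positive differences, with a median of -0.13. Tbc1d5, the retromer-bound Rab7 regulator, measured 8.70, 8.82 and 8.84 in the Mist-targeted arrays, against 8.94, 8.97 and 9.02 in the Control arrays. The groups were separated, with a difference of -0.19 ± 0.083 (SE; limma adjusted p = 0.52). A second probe set of Tbc1d5 gave 0.18 ± 0.12, so the probe sets of this gene disagree in sign, and the mean of both differed by -0.0079. The second averaged 4.59 over the 6 arrays, close to the array medians of 4.47 to 4.50, and the first averaged 8.88. Tbc1d15, which regulates Rab7 at lysosomes and mitochondria, measured 9.31, 9.30 and 9.18 in the Mist-targeted arrays, against 9.46, 9.32 and 9.35 in the Control arrays. Its groups were barely separated, the difference was -0.12 ± 0.087, and a second probe set gave -0.30 ± 0.27. Tbc1d2b and Tbc1d17, relatives of Tbc1d2 and Tbc1d15, differed by -0.23 ± 0.11 and -0.14 ± 0.10 with overlapping groups. Tbc1d14, which binds the autophagy kinase ULK1 and delays autophagosome formation, was higher in every Mist-targeted array (difference 0.16 ± 0.083, adjusted p = 0.62). Tbc1d25, which acts in autophagosome maturation, differed by 0.01 ± 0.089, and Tbc1d12, a relative of Tbc1d14, by -0.09 ± 0.11. The retromer genes Vps35, Vps26a, Vps26b and Vps29 differed by -0.13, 0.08, 0.00092 and -0.10, and 0 of the 4 were called.

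**Figure D3:**
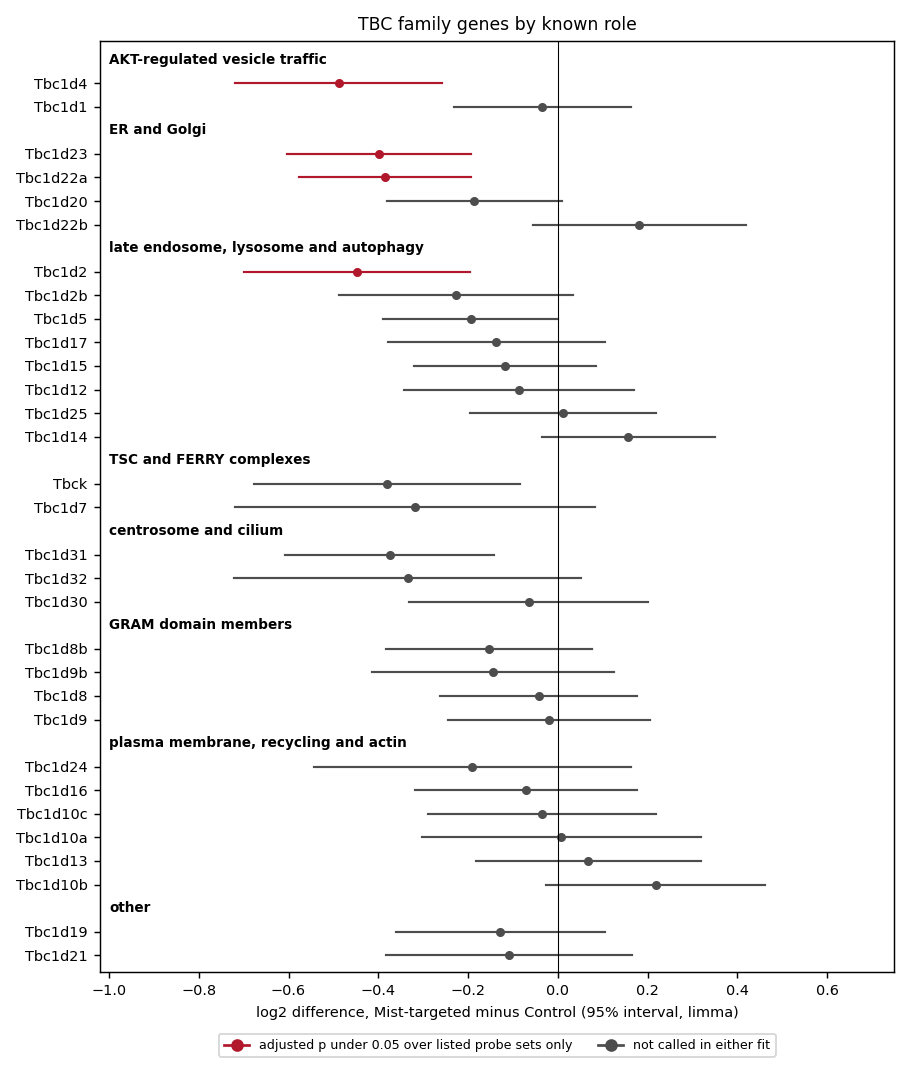
Log2 difference, Mist-targeted minus Control, of each TBC family gene with its 95% interval from limma (x axis), grouped by known role. Tbc1d4, Tbc1d23, Tbc1d22a and Tbc1d2 are coloured as called among listed probe sets, and 0 members were called over all probe sets.

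Members that act at the plasma membrane and in recycling were spread evenly, with 3 negative and 3 positive differences and a median of -0.01. Tbc1d10b, one of the Rab35 and Rab27 regulators that link to the actin cortex, had the largest positive difference of the family. It was 0.22 ± 0.10 with all Mist-targeted arrays above all Control arrays (limma adjusted p = 0.57), and 0.13 without Mist-targeted replicate 3. Its relatives Tbc1d10a and Tbc1d10c differed by 0.0081 ± 0.13 and -0.04 ± 0.11. The Rab35 regulator Tbc1d13 differed by 0.07 ± 0.11, the Rab4 regulator Tbc1d16 by -0.07 ± 0.11 and the ARF6-binding protein gene Tbc1d24 by -0.19 ± 0.15. The groups overlapped in all 5 of these relatives and other regulators.

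All 4 members with GRAM domains, lipid-binding modules, had small negative differences and overlapping groups. Tbc1d8b differed by -0.15 ± 0.098, Tbc1d9b by -0.15 ± 0.12 and Tbc1d9 by -0.02 ± 0.096. Tbc1d8 measured 4.11, 3.89 and 4.13 in the Mist-targeted arrays, against 4.10, 4.10 and 4.06 in the Control arrays, a difference of -0.04. A probe set shared with ribosomal protein genes was not used for it. Tbc1d21, known from sperm, measured 4.11, 3.91 and 4.003 in the Mist-targeted arrays, against 4.07, 3.95 and 4.32 in the Control arrays, overlapping groups with a difference of -0.11. Tbc1d19, a little studied member, differed by -0.13 ± 0.10.

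Of the 31 members 4, Tbc1d8, Tbc1d10c, Tbc1d21 and Tbc1d30, lay below the median on all 6 arrays, and the other 27 above it on all 6. Relative to the Control mean of each gene, the family medians were -0.13, -0.05 and -0.14 on the Mist-targeted arrays, against -0.03, 0.02 and 0.04 on the Control arrays. Of the 31 members 24, 22 and 23 lay below that mean on the Mist-targeted arrays, against 21, 13 and 11 on the Control arrays. The mean was taken over the Control arrays themselves, so their deviations cancel within each gene and their counts are not an independent contrast. The medians over all genes lay between -0.0012 and 0.0099 on the same 6 arrays. Control replicate 1, with 21 members below that mean, was the Control array nearest to the Mist-targeted ones.

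The TBC domain also occurs in 9 measured genes with other symbols, most of them also on the negative side. Of the 9, 7 had negative differences, the median was -0.15, and 0 were called. At an unadjusted p under 0.05 (limma) 2 were lower, beside 5.79% of all genes, and 0 higher, beside 5.24%. Evi5l differed by -0.27 ± 0.092 and Grtp1 by -0.33 ± 0.12, with adjusted p values of 0.37 and 0.42. Evi5l, Grtp1, Evi5 (-0.15) and Rabgap1l (-0.15) had all Mist-targeted arrays below all Control arrays, beside 9.97% of all genes, and 0 of the 9 had them above, beside 9.99%.

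The Rab GTPases, the substrates of the family, were balanced around 0. Of 56 measured genes 27 had negative and 29 positive differences, with a median of 0.0084, and 0 were called. At an unadjusted p under 0.05 (limma) 3 were lower (5.36%, beside 5.79% of all genes) and 2 higher, beside 5.24%. In 9 of the 56 the Mist-targeted arrays lay below all Control arrays (16.1%, beside 9.97% of all genes), and in 2 above them (3.57%, beside 9.99%). Removal of the dimmest 40% of probe sets left 48 of the 56. Of all genes left, 13.2% were lower throughout and 13.1% higher throughout. Rab15, an endosomal Rab of the recycling route, had the largest difference. It measured 4.20, 4.26 and 4.17 in the Mist-targeted arrays, against 4.93, 4.62 and 4.93 in the Control arrays, which puts the Mist-targeted arrays below the median of every array. Its difference was -0.62 ± 0.11 (SE; limma adjusted p = 0.083 over all probe sets and 0.0070 over listed ones). Rab43 was next by p, at 0.28 ± 0.095. The late endosomal Rab7, substrate of several members above, differed by -0.14 ± 0.084, Rab35 by 0.17 ± 0.11 and Rab1a by 0.03 ± 0.089, none of them called.

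Rab guanine nucleotide exchange factors, which switch Rabs on, included 17 negative and 10 positive differences among 27 measured genes, with a median of -0.02 and 0 called. At an unadjusted p under 0.05 (limma) 3 were lower (11.1%, beside 5.79% of all genes) and 2 higher, beside 5.24%. Rab3il1, an exchange factor for Rab8 and Rab3, measured 6.83, 6.88 and 6.90 in the Mist-targeted arrays, against 7.22, 7.30 and 7.26 in the Control arrays. Its difference was -0.39 ± 0.078 (SE; limma adjusted p = 0.12 over all probe sets and 0.028 over listed ones). Dennd1a, an exchange factor for Rab35, differed by -0.37 ± 0.089 (adjusted p = 0.18 over all and 0.047 over listed probe sets).

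The tubulin cofactors, chaperones that fold and join alpha and beta tubulin, showed no common direction. Tbcc, which completes the release of the assembled dimer, measured 5.81, 6.005 and 6.13 in the Mist-targeted arrays, against 5.49, 5.57 and 5.83 in the Control arrays. The groups overlapped at their edges, with a difference of 0.35 ± 0.13 (SE; limma adjusted p = 0.41). Tbcb, which captures alpha tubulin, measured 8.10, 8.30 and 8.24 in the Mist-targeted arrays, against 8.07, 7.98 and 8.14 in the Control arrays, a difference of 0.15 ± 0.093. Tbca, which captures beta tubulin, measured 8.33, 8.51 and 8.72 in the Mist-targeted arrays, against 8.47, 8.63 and 8.57 in the Control arrays. Tbcd, a beta tubulin cofactor of the final complex, measured 8.05, 8.23 and 8.26 in the Mist-targeted arrays, against 8.19, 8.21 and 8.31 in the Control arrays. The groups overlapped for both, with differences of -0.04 ± 0.12 and -0.06 ± 0.093. Of the 4 cofactors 0 were called. At an unadjusted p under 0.05 (limma) 1 was higher, beside 5.24% of all genes. Tbce, read by a probe set shared with B3galnt2, was not analysed here.

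Tubulin genes themselves were mostly on the positive side, with 9 of 12 above 0, a median of 0.22 and 0 called. Of all genes 47.8% were negative. At an unadjusted p under 0.05 (limma) 5 were higher, beside 5.24% of all genes, and 1 lower, beside 5.79%. Tubb2a, a beta tubulin, measured 6.66, 6.54 and 6.67 in the Mist-targeted arrays, against 6.15, 6.22 and 6.05 in the Control arrays, a difference of 0.48 ± 0.089 (SE). Tubb4a, a beta tubulin best known from neurons and oligodendrocytes, went the other way, with 4.85, 5.00 and 4.97 in the Mist-targeted arrays, against 5.37, 5.75 and 5.56 in the Control arrays. Its difference was -0.62 ± 0.11 (SE). Both had limma adjusted p = 0.098 over all probe sets, and 0.013 and 0.0088 over listed ones. Tubb4b, another beta tubulin, differed by 0.39 ± 0.091 (adjusted p = 0.18 over all probe sets and 0.044 over listed ones). Tubulin genes of the same class can be closely similar in coding sequence, and which probes are shared between them was not tested. The cofactor relatives Tbcel, Tbccd1 and Arl2 differed by 0.0036, -0.02 and 0.02.

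**Figure D4:**
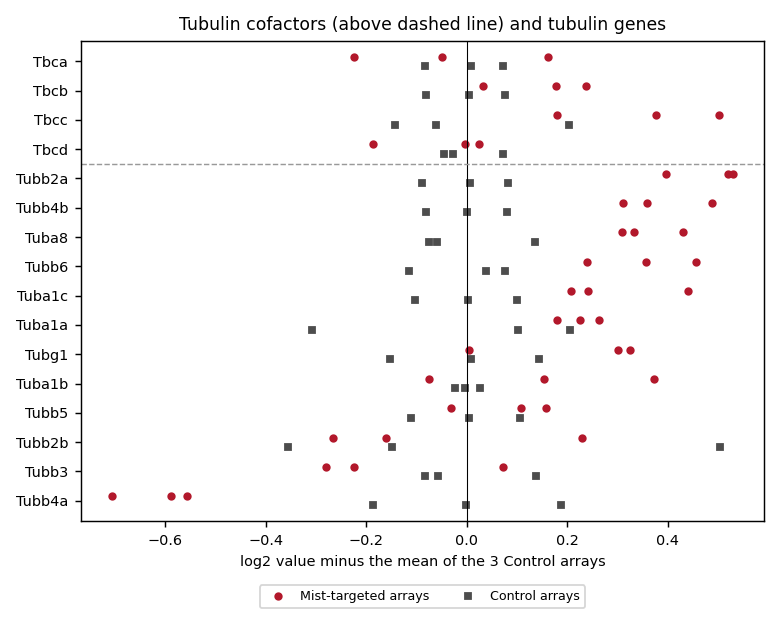
Log2 value on each array minus the mean of the 3 Control arrays (x axis) for the 4 tubulin cofactors, above the dashed line, and 12 tubulin genes, below it. Circles are Mist-targeted arrays and squares Control arrays. They overlap for every cofactor and are apart for Tubb2a, Tubb4b, Tuba8, Tubb6, Tuba1c and Tubb4a. Of all genes, 9.99% had Mist-targeted arrays higher throughout and 9.97% lower throughout.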

How the data were processed

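The authors deposited log2 values for each of the 6 arrays. The submitters' processing notes name RMA, which corrects background, quantile-normalizes and summarises probes, and also Partek, with neither version nor role. Quantile normalization hides a shift shared by most transcripts. The log2 values were used as deposited. Of 41345 probe sets, 23521 had 1 gene symbol in the platform annotation, 1814 several and 16010 were not listed. Gene IDs of all 36 members, cofactors and the noncoding RNA matched RefSeq (GRCm38.p6), and promoters are from RefSeq; the genome build of the arrays is not given in the sources used here. 3 members have a second probe set.

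Groups follow the GapmeR in the labels. Differences are Mist-targeted minus Control from limma 3.58.1 in R 4.3.3 (lmFit, eBayes, two-sided, group only), with p values adjusted over all 41345 probe sets. The model was tested on simulated data whose planted differences were larger than any of the TBC family. Recovery of differences of the family's size was not tested. No filter on low values was applied. Members, lists, tests and alternatives were chosen with earlier results of these data known, as were the motifs and the paralog pairs. Named with every array are the 8 largest differences, the 3 highest and 3 lowest levels, the cofactors, and further genes chosen after their values were seen (Rab15, Rab3il1, Tubb2a, Tubb4a). Of other lists the 2 smallest p are named, plus fixed partners (Tsc1, Tsc2, Rheb, Rab7, Rab35, Rab1a), all genes of the short partner lists and, outside this rule and chosen after their values were seen, Tubb4b, Evi5, Rabgap1l and those in the tubulin plot; markers are named as examples only. Listed genes without a probe set of their own, such as Rab4b, were not analysed here. Settings tried besides were a replicate block, trend and robust moderation, none, a filter on the dimmest 40%, listed probe sets only, quantile normalization, median centring, array weights, the mean of a gene's probe sets and leaving out each array.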

Additional observations from a re-analysis of the deposited data

How the results depend on the processing

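Testing only listed probe sets called 4 of 31 TBC family genes, 1 of 56 Rab GTPases (Rab15) and 2 of 27 Rab exchange factors (Rab3il1 and Dennd1a). Over all probe sets 0 of each were called. All of these were lower, beside 1.8% of all genes called lower in that fit, a share close to that of the Rab GTPases. Of 12 tubulin genes the same fit called 2 higher (Tubb2a and Tubb4b), beside 1.1% of all genes, and 1 lower (Tubb4a). Fewer probe sets are tested there, and the standard errors are estimated anew. Under the other 14 alternatives 0 genes of the TBC family, Rab GTPases, Rab exchange factors, tubulin cofactors or TBC genes with other symbols were called. Leaving out any 1 array is included there (0 to 0). Unadjusted, 5 to 10 TBC family genes passed, with 8 where no moderation was used. The family median lay between -0.16 and -0.11 under all 15. Without 1 array, the difference ranged from -0.14 to 0.056 for Tbca and from -0.095 to 0.010 for Tbcd, both positive without Mist-targeted replicate 1, and from -0.087 to 0.034 for Tbc1d8, positive without Mist-targeted replicate 2. Members close to 0 also crossed it without 1 array: Tbc1d1 (-0.072 to 0.00074), Tbc1d9 (-0.098 to 0.040), Tbc1d10a (-0.10 to 0.078), Tbc1d10c (-0.10 to 0.059), Tbc1d16 (-0.14 to 0.016) and Tbc1d25 (-0.032 to 0.075). Removing the dimmest probe sets gave no value for Tbc1d8, Tbc1d10c, Tbc1d21 and Tbc1d30. The number of genes called over all was 92, against 241 with trend and robust moderation, 140 without the dimmest probe sets, 643 among listed ones, 0 without moderation and 1 to 34 without 1 array. With the replicate block 0 genes were called in all, and 0 of the TBC family. Same-numbered arrays deviated together at correlations of 0.20, 0.096 and 0.033. Control replicate 3 correlated best with Mist-targeted replicate 2, at 0.060. So few arrays cannot settle whether same-numbered samples share a batch, and the labels give only the number.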
